A study of Mus musculus with 4 samples.

Results

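The comparison described here is between cells sorted from metastasis-bearing mouse brains with and without whole brain radiation therapy (WBRT). They were read 1 cell per well and are labelled BMDM, the field's short form for bone marrow-derived macrophages. By their markers, given below, the wells are a mixture that includes dendritic cells. Both plates hold cells of Balb/C athymic nude mice (CAnN.Cg-Foxn1nu/Crl), a strain that lacks a working thymus and so most T cells, bearing lung cancer brain metastases. The plate without WBRT carries the tumor stage label small. The irradiated plate carries the stage label not stratified and the treatment label d3/5x2 Gy, read here as 5 fractions of 2 Gy, and the labels do not say from which event d3 is counted. The number of animals behind each plate, and whether animals were pooled, is not stated. A well was kept when it held at least 1000 counts outside spike-in (ERCC) and mitochondrial genes and an ERCC share under 50%. This left 234 of 384 wells without WBRT and 262 of 384 with WBRT, 496 of the 804 kept wells of the series and 2 of its 4 plates, and the other 2 plates hold microglia of the same mouse strain and treatments. Each group is 1 plate, so no test was made, and treatment, tumor stage and plate cannot be told apart. All intervals below are 95% intervals of counting error within a plate.

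A brain tumor is populated by resident microglia, by monocytes that enter from the blood and mature into macrophages, and by dendritic cells, which carry antigen to lymph nodes. Macrophages that settle along vessels and meninges, called border-associated macrophages, express the mannose receptor and scavenger receptors. Type I interferon, made when nucleic acid is sensed in the cytosol, switches on a shared set of antiviral genes in all of these cells. A sorted plate holds a mixture, so a pooled difference can come from another mix of cells or from other levels within the cells, and the wells were therefore compared before and after those with dendritic-cell or Kcnq1ot1 signatures were left out.

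The kept wells held 1265842 transcripts without WBRT and 2513025 with WBRT, or 4388 and 8894 in the median well. Spike-in transcripts took a median share of 7.04% and 7.86%, and mitochondrial transcripts made up 9.05% and 7.48%. Read at an equal 1000 transcripts per well, the median well showed 590 and 626 genes. No well had identical values in both plates. The label was checked against markers in all kept wells. Ccr2, the monocyte chemokine receptor, stood at 389 and 969 CPM (transcripts of a gene per 1000000 endogenous transcripts of the plate) in the BMDM plates without and with WBRT, against 0 and 6.16 CPM in the microglia plates. Itga4, an integrin subunit found on macrophages of blood origin and not on microglia, had 258 and 223 CPM against 29.7 and 55.5 CPM. Microglia genes were present too: P2ry12 stood at 90.1 and 75.2 CPM against 336 and 466 CPM in microglia, and Tmem119 at 115 and 177 CPM against 514 and 583 CPM. Lyz2, also chosen as a marker of the BMDM label, separated the sorts little, at 144 and 1145 CPM against 82.3 and 1003 CPM. By Ccr2 and Itga4 the BMDM label therefore held for the pooled plate, with a microglial signal in it.

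The mix of wells differed widely between the plates. A well met the first rule when Ccr7, the receptor that leads mature dendritic cells to lymph nodes, Ccl22, a chemokine of the same cells, and Cacnb3, a calcium channel subunit, together had at least 3 counts. This held for 47 of 234 wells without WBRT, 20.1% (exact binomial interval 15.2% to 25.8%), and for 1 of 262 wells with WBRT, 0.382% (0.00966% to 2.11%). The second rule asked for at least 2 counts of Xcr1, Clec9a and Itgae, which mark the cross-presenting cDC1 dendritic cells. It added 36 wells without WBRT (15.4%) and 10 with WBRT (3.82%). The third rule, at least 10000 CPM of the nuclear long noncoding RNA Kcnq1ot1, added 19 wells (8.12%) and 11 wells (4.20%). In total 102 wells (43.6%, 37.1% to 50.2%) met a rule without WBRT and 22 (8.40%, 5.34% to 12.4%) with WBRT, and they held 40.1% and 6.52% of all transcripts. In the microglia plates, with medians of 4789 and 2546 transcripts per well, 3.18% and 4.64% of wells met a rule.

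The plate with fewer marked wells was the deeper one, and the order of the dendritic shares was the same at equal depth. With each well thinned to 1000 transcripts, 37 wells (15.8%) without WBRT and 0 of 262 with WBRT met the Ccr7 rule, and 11 (4.70%) and 2 (0.763%) met the Xcr1 rule. A count of 0 of 262 wells allows a share of up to 1.15% by the limit of 3 counts. At the threshold of the Ccr7 rule, 5 wells without WBRT had exactly 3 counts and 17 had 2, against 0 and 3 wells with WBRT. Wells with 2 counts stayed among the wells left unless they met another rule. The Xcr1 rule was less sharp, with 8 wells at 2 counts and 30 at 1 count without WBRT, and 1 and 19 with WBRT. Within 1000 CPM of the Kcnq1ot1 threshold, 1 well lay above and 6 below without WBRT, and 0 and 2 with WBRT. Of the 150 and 122 wells left out for low counts, 3 and 0 met the Ccr7 rule and none met the Xcr1 rule.

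**Figure D1:**
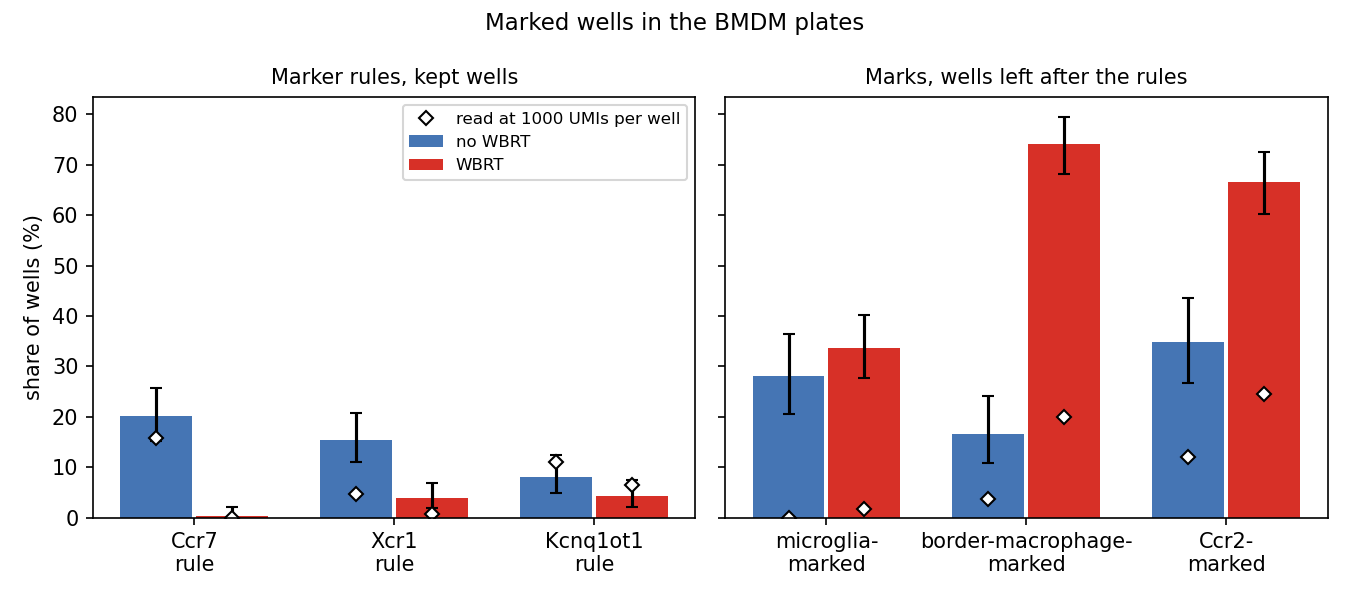
Left, share of kept wells (%) that met each marker rule, each well counted under the first rule it met; right, share of the wells left after the rules (%) that carried each mark. Blue bars are the plate without WBRT, red bars the plate with WBRT, lines are exact 95% binomial intervals and diamonds give the share read at 1000 transcripts per well; 20.1% of wells met the Ccr7 rule without WBRT and 0.382% with WBRT.

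The 132 wells left without WBRT (757924 transcripts) and the 240 left with WBRT (2349266 transcripts) were still mixtures. A border-macrophage mark (at least 3 counts of Mrc1, Pf4, Cd163, F13a1 and Folr2 together) was carried by 22 of the 132 wells (16.7%, 10.8% to 24.1%) and by 178 of the 240 (74.2%, 68.1% to 79.6%). A Ccr2 mark (at least 2 counts) was carried by 46 wells (34.8%) and 160 wells (66.7%), and a microglia mark (at least 3 counts of P2ry12, Tmem119, Siglech and Sall1) by 37 wells (28.0%) and 81 wells (33.8%). These marks count transcripts, and the median well left had 4384 and 9014 of them. Thinned to 1000 transcripts per well, the border-macrophage mark was carried by 3.79% and 20% of wells, the Ccr2 mark by 12.1% and 24.6%, and the microglia mark by 0% and 1.67%. Both the Ccr2 and the border-macrophage mark were carried by 10 wells without WBRT and 122 with WBRT. In sums over wells, fewer cells of a type and less RNA of that type per cell cannot be told apart.

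Most of the large differences were also present after the marked wells were left out. A gene was called measured when it reached 20 CPM in at least 1 of the 2 plates, and past 2-fold when the ratio of CPM + 5 with WBRT to CPM + 5 without was at least 2 in either direction. Over all kept wells 6535 genes were measured, of which 338 (5.17%) were at least 2-fold higher and 402 (6.15%) at least 2-fold lower with WBRT. In the wells left 6512 genes were measured, of which 344 (5.28%) were higher and 290 (4.45%) lower. The higher genes of the 2 readings shared 228 members, 67.5% of the first list and 66.3% of the second, and the lower genes shared 219, 54.5% and 75.5%. The median log2 ratio of all measured genes was 0.08 before and 0.10 after.

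Among the 1808 measured genes of at least 100 CPM, 118 were at least 2-fold higher and 122 at least 2-fold lower before the rules. The counts that follow leave out ribosomal, microRNA and numbered predicted genes. Of the remaining genes 235 were past 2-fold before the rules, 117 higher and 118 lower. Of these 141, 74 higher and 67 lower, were past 2-fold in the same direction afterwards. None that was under 0.5 in log2 size before was past 2-fold afterwards. The genes that lost most of their difference, under 0.5 in log2 size afterwards, numbered 16 and were all lower with WBRT. Ccl22 went from a log2 ratio of -3.95 to -0.28, but it is a gene of the rule, so that value is set by the choice of wells. Tmem123, a surface protein of mature dendritic cells, went from -2.04 to -0.18. Myo1g, a membrane myosin of blood cells, went from -2.05 to -0.50, and Ncoa7, a nuclear receptor coactivator, from -1.84 to -0.33. The difference of each gene in pooled CPM was also split into a part carried by the transcript shares of 4 well classes (the 3 rules and the other wells) and a part carried by the level within classes. The share part was over 50% of the difference for 36 of the 235 genes, 35 of them lower with WBRT. The level within the Ccr7 class rests on 1 well with WBRT.

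**Figure D2:**
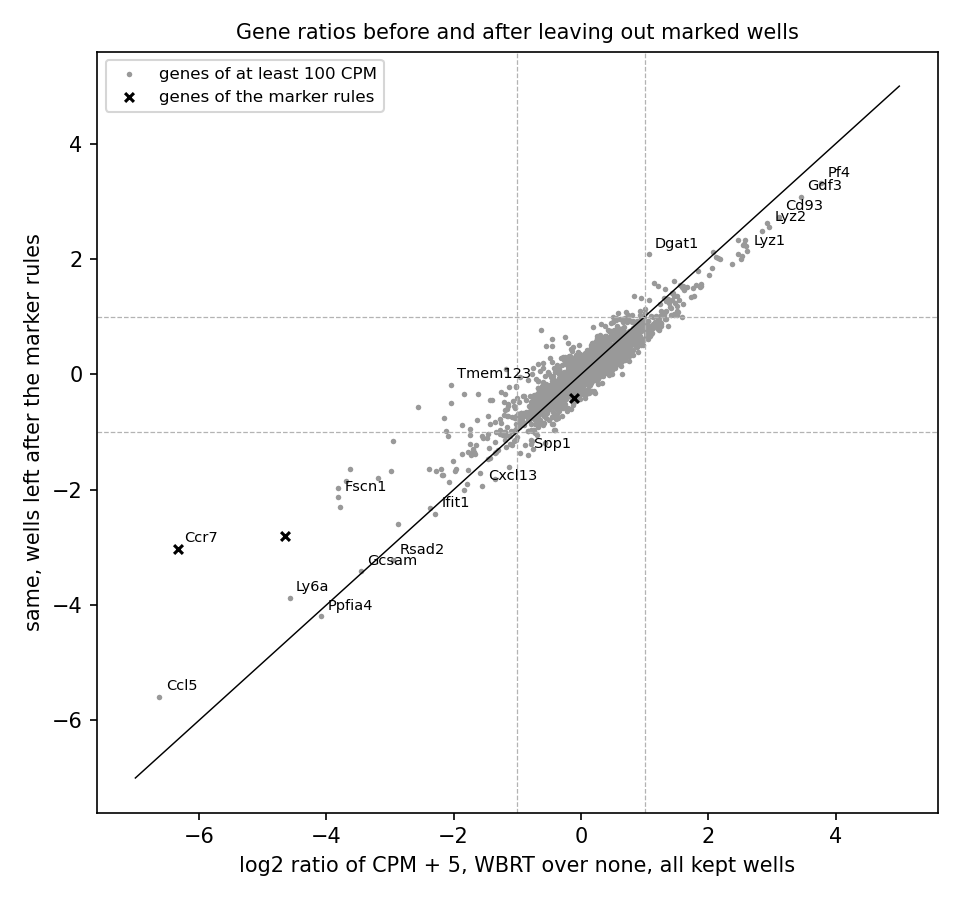
Log2 ratio of CPM + 5, WBRT over none, in all kept wells (x axis) and in the wells left after the marker rules (y axis), 1 grey point for each of the genes of at least 100 CPM; crosses are genes of the marker rules, the solid line is equality and dashed lines mark 2-fold. Genes higher with WBRT lie near the line, such as Pf4 at 3.78 and 3.32, while lower genes of mature dendritic cells lie above it, such as Fscn1 at -3.82 and -2.13.

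Border-macrophage genes stood higher with WBRT in the wells left. Of 15 measured members of the list, 9 were at least 2-fold higher and 1 at least 2-fold lower, with a median log2 ratio of 1.55, against 1.87 over all kept wells. The list shares Pf4, F13a1, Mrc1, Folr2 and Cd163 with the mark above. Pf4, the chemokine platelet factor 4 (chromosome 5, 90772435 to 90773383, GRCm38), stood at 36.9 CPM without WBRT and 413 CPM with WBRT, 11.2-fold higher (7.68 to 16.9), and was seen in 5.30% and 21.7% of wells at 1000 transcripts. Without WBRT 82.1% of its counts came from the 10 wells that held most, and with WBRT 35.6%. F13a1, the coagulation factor XIII subunit of monocytes and macrophages, stood at 95.1 and 463 CPM, 4.87-fold higher (3.84 to 6.27). Ms4a7, a membrane protein that separates macrophages from microglia, stood at 185 and 757 CPM. Stab1, a scavenger receptor, stood at 180 and 603 CPM, and Dab2, an endocytic adaptor, at 327 and 949 CPM. Folr2, a folate receptor, stood at 5.28 and 79.2 CPM and Cbr2, a carbonyl reductase, at 21.1 and 109 CPM. Not every defining gene took part. Mrc1, the mannose receptor, stood at 209 and 395 CPM, a log2 ratio of 0.90. Clec10a, a galactose lectin shared with dendritic cells, was lower at 123 and 48.1 CPM. Cd163, the haemoglobin scavenger receptor, was too low to be measured, at 3.96 and 5.11 CPM. Its log2 ratio ranged from -2.01 to 1.19 under the alternatives.

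Lysozyme transcripts had the largest gain in absolute level among the named genes. Lyz1 stood at 2216 CPM without WBRT and 9797 CPM with WBRT in the wells left, 4.42-fold higher (4.21 to 4.65), and was seen in 64.4% and 92.1% of wells at 1000 transcripts. Lyz2 stood at 203 and 1222 CPM, 6.01-fold higher (5.11 to 7.12), and was seen in 17.4% and 53.3% of wells. These near-identical genes lie side by side on chromosome 10 (Lyz2 at 117277541 to 117282272, Lyz1 at 117287795 to 117292868), so reads may be assigned to one or the other, and their single values carry that uncertainty. Their summed level was 2420 CPM without WBRT and 11019 CPM with WBRT. The microglia plates showed the same order after the same rules, with Lyz1 at 511 and 4215 CPM and Lyz2 at 85.7 and 1014 CPM.

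Many genes of tissue repair stood higher in the same wells. Of 20 measured members of the list of wound and alternative activation genes, 10 were at least 2-fold higher and 1 at least 2-fold lower in the wells left, with a median log2 ratio of 1.0 against 1.26 over all kept wells. Gpnmb, a glycoprotein of lysosome-rich macrophages, stood at 31.7 and 200 CPM, 6.31-fold higher (4.19 to 9.96). Igf1, a growth factor made by repair macrophages, stood at 21.1 and 126 CPM, 5.95-fold higher (3.60 to 10.5), and in the microglia plates at 2.41 and 281 CPM. Fn1, fibronectin, stood at 262 and 765 CPM. Tgfbi, a matrix protein induced by TGF-beta, stood at 527 and 1458 CPM, and Il1rn, the natural antagonist of the interleukin-1 receptor, at 80.5 and 256 CPM. Spp1, osteopontin, was the member lower by more than 2-fold, at 5370 and 2046 CPM, and 73.9% of its counts without WBRT came from 10 wells. Among the wells with the Ccr2 mark its order was the reverse, at 640 and 1486 CPM. The list of scavenger receptors and of clearance of dying cells did not stand apart in this way: 3 of 15 measured members (Cd93, Stab1 and Msr1) were at least 2-fold higher and 0 lower, with a median of 0.15. Of its other members, Cd36 had a log2 ratio of -0.98, Timd4 of -0.92 and Gas6 of -0.87.

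The other genes named by the rule for higher genes have varied functions. Cd93, a receptor linked to the removal of dying cells, stood at 83.1 and 582 CPM, 7.0-fold higher (5.44 to 9.16), and was seen in 3.79% and 33.3% of wells at 1000 transcripts. Gdf3, a ligand of the TGF-beta family, stood at 9.24 and 115 CPM, 12.5-fold higher (5.98 to 31.4, on 7 counts without WBRT). Itga9, an integrin subunit, stood at 15.8 and 123.5 CPM, and Emp1, an epithelial membrane protein, at 34.3 and 184.5 CPM. Apobec1, the cytidine deaminase that edits RNA, stood at 205 and 1049 CPM, 5.13-fold higher (4.36 to 6.07), and was seen in 20.5% and 60.4% of wells. Hal, the histidine ammonia-lyase, stood at 26.4 and 143 CPM. For these 12 genes the transcript shares of the well classes carried between 17.1% and 23.4% of the pooled difference. The rest lay in the level within classes, for Pf4 292 CPM, of which 288 CPM lay in the other wells. That class is itself a mixture, with the border-macrophage mark on 16.7% and 74.2% of its wells. A level within it is therefore not a level within cells of 1 type. Cxcl1, a chemokine that attracts neutrophils, had 0 counts in the wells left without WBRT and stood at 102 CPM with WBRT, at least 25.8-fold higher against a floor of 3 counts in the plate without WBRT. It is not one of the 12 genes, since fewer than 20% of the wells left with WBRT held a transcript of it.

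**Figure D3:**
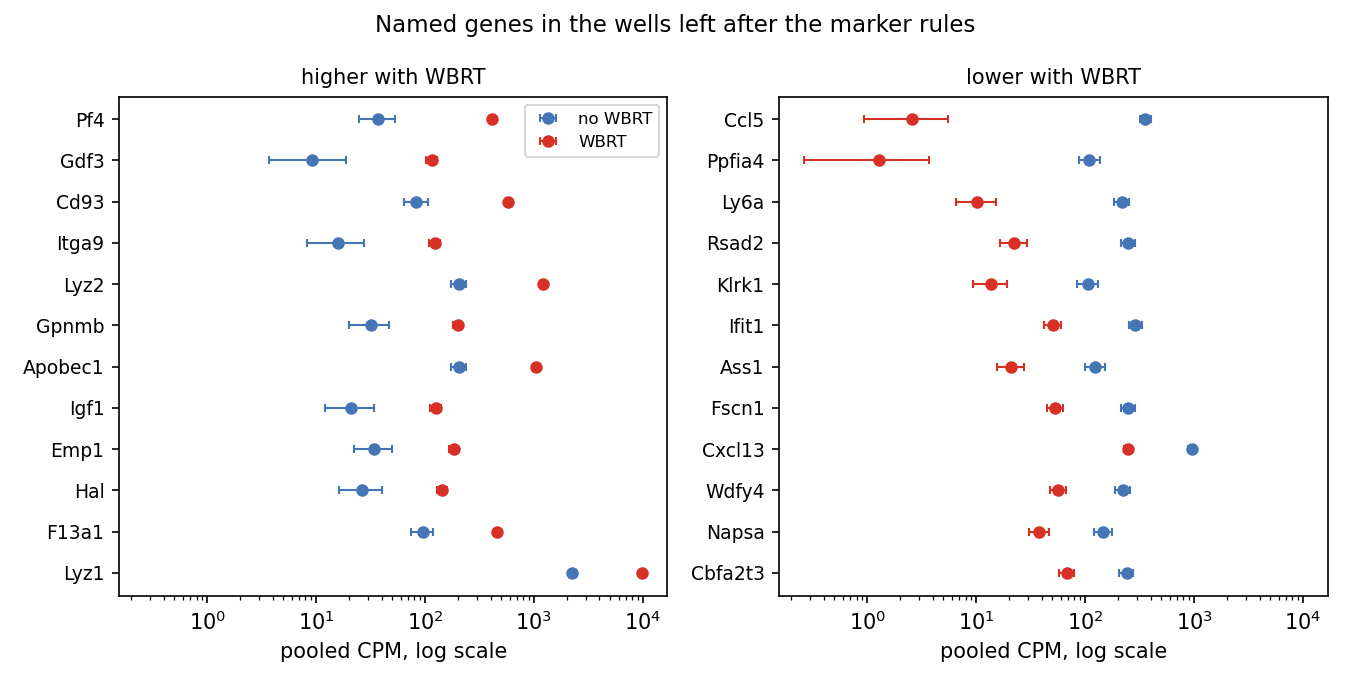
Pooled CPM (log axis) of the 12 named higher genes (left) and the 12 named lower genes (right) in the wells left after the marker rules, blue for the plate without WBRT and red for the plate with WBRT, with exact 95% Poisson intervals where these are wider than the point. Pf4 stands at 36.9 and 413 CPM and Ccl5 at 358 and 2.55 CPM.

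The lower genes include several of dendritic and lymphoid cells that remained far lower after the rules. Ccl5, the chemokine RANTES (chromosome 11, 83525778 to 83530518), stood at 800 CPM without WBRT over all kept wells, and 70.6% of those counts lay in the wells of the Ccr7 rule. In the wells left it stood at 358 CPM without WBRT and 2.55 CPM with WBRT, 140-fold lower (63.5 to 385). At 1000 transcripts it was seen in 18.9% of the wells left without WBRT and 0% with WBRT. Ppfia4, a synaptic scaffold protein of the liprin family, stood at 110 and 1.28 CPM, 85.8-fold lower (28.3 to 424, on 3 counts with WBRT), and the shares of the well classes carried -1.92% of its difference. Ly6a, the surface antigen Sca-1, stood at 218 and 10.2 CPM, 21.3-fold lower (13.8 to 34.2). Each of these 3 was lower in the microglia plates as well: Ccl5 at 796 and 52.7 CPM, Ppfia4 at 174 and 1.60 CPM and Ly6a at 199 and 0 CPM, the last at 0 counts.

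Klrk1, the activating receptor NKG2D, stood at 107 CPM without WBRT and 13.6 CPM with WBRT in the wells left, 7.85-fold lower (5.15 to 12.2). Over all kept wells without WBRT, 39.3% of its counts lay in wells of the Xcr1 rule and 19.4% in wells of the Ccr7 rule. Whether those wells also held lymphoid genes was not tested. Gzma, a granzyme of cytotoxic lymphocytes, stood at 60.8 CPM in the wells left without WBRT, all of it in 10 or fewer wells, and at 0 with WBRT. Both belong to the list of T and NK cell markers, whose summed level in the wells left was 249.5 and 17.5 CPM. Klrk1 alone made up 107 and 13.6 CPM of that sum. Of the list's 16 members 11 had values, and 2 were measured, both past 2-fold lower. Among the defining genes Nkg7 stood at 15.8 and 0 CPM, Ncr1 at 11.9 and 0 CPM and Cd3d at 11.9 and 2.13 CPM. The part of lymphoid cells in the difference of Ccl5, Klrk1 and Gzma was not tested.

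Dendritic-cell genes outside the rules were lower as well in the wells left. Fscn1, the actin-bundling protein of mature dendritic cells, stood at 778 and 50.6 CPM over all kept wells and at 249.5 and 53.2 CPM in the wells left, 4.69-fold lower (3.72 to 5.92), with 75.9% of the counts without WBRT in the wells of the Ccr7 rule. Wdfy4, needed for cross-presentation by cDC1 cells, stood at 222 and 57.0 CPM in the wells left, and 59.9% of its counts without WBRT lay in the wells of the Xcr1 rule. Cbfa2t3, a transcriptional corepressor, stood at 240 and 68.1 CPM, and Napsa, an aspartic protease, at 146.5 and 37.9 CPM. Ass1, the arginine-synthesis enzyme argininosuccinate synthase, stood at 124 and 20.9 CPM. The mature dendritic list, which contains the genes of the Ccr7 rule, had a median log2 ratio of -2.50 over all kept wells (11 of 15 measured members past 2-fold lower) and -0.85 in the wells left (5 of 11). Without the genes of the rule these were -2.09 (8 of 12) and -0.74 (3 of 9). The cDC1 list, which holds the genes of the Xcr1 rule, had a median of -1.46 (9 of 11) over all kept wells. Without the genes of the rule it went from -1.36 (6 of 8) to -0.87 (3 of 7). The list of cDC2 and monocyte-derived dendritic cells went the other way, from -0.65 (5 of 13) to -1.19 (7 of 13, with 1 past 2-fold higher), and stood at 0.13 when border-macrophage-marked wells were left out too. Its members Cd7, a lymphoid surface protein, stood at 60.7 and 7.25 CPM, Flt3, the growth factor receptor of dendritic cell precursors, at 48.8 and 11.1 CPM, and Dpp4, a surface peptidase, at 63.3 and 16.6 CPM. Plasmacytoid markers had 3 of 6 past 2-fold lower, among them Siglech, which is also a gene of the microglia mark. Their median was -1.35, and 9 of 24 other settings brought it under 2-fold, with a range of -1.88 to -0.30 and the weakest value in the wells with neither the microglia nor the border-macrophage mark.

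Genes of the interferon response stood lower in the irradiated plate, and leaving out the marked wells changed this little. Of 44 measured members 0 were at least 2-fold higher and 17 at least 2-fold lower in the wells left, 41 had a ratio below 1, and the median log2 ratio was -0.82. Over all kept wells 20 of 43 were at least 2-fold lower, with a median of -0.95. Rsad2, the antiviral enzyme viperin, stood at 248 CPM without WBRT and 22.1 CPM with WBRT, 11.2-fold lower (8.20 to 15.5). Ifit1, which binds viral RNA, stood at 290 and 50.3 CPM, 5.77-fold lower (4.6 to 7.29). Isg15, the ubiquitin-like interferon product, stood at 144 and 41.7 CPM, Mx1, an antiviral GTPase, at 100.3 and 32.4 CPM, and Cxcl10, an interferon-induced chemokine, at 102 and 20.9 CPM. Irf7, the factor that amplifies the response, stood at 313 and 147 CPM. The signal without WBRT was uneven over wells: 10 wells held 85.1% of the Rsad2 counts, 63.1% of the Ifit1 counts and 97.4% of the Cxcl10 counts in the wells left.

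Promoters of 4 of these genes are shown because the interferon-stimulated response element, through which interferon acts on many such genes, can be read in them. It was not found in all members. The motif GAAANNGAAA was searched on both strands in the 250 bases before each start site of RefSeq's GRCm38.p6 annotation. It was present for 16 of 34 measured members of the list with a promoter in the table (47.1%), against 179 of 4989 measured genes (3.59%) and 978 of all 32851 windows (2.98%). Among members at least 2-fold lower it was present for 6 of 14 (42.9%), and among the other measured members for 10 of 20 (50%). The 4 members with the lowest log2 ratio among those of at least 100 CPM with a match upstream of the gene's outermost start are printed 5′ to 3′ on the gene's strand, with the match and 20 bases on each side, and capitals mark the match. The regions are chr12:26456543-26456592 (minus strand) for Rsad2, chr19:34640765-34640833 (plus strand) for Ifit1, chr5:92349073-92349122 (minus strand) for Cxcl10 and chr4:156200855-156200916 (minus strand) for Isg15.
Rsad2: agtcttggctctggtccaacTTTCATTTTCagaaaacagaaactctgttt
Ifit1: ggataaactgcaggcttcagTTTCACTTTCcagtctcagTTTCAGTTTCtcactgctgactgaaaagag
Cxcl10: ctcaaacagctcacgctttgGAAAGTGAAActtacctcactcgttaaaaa
Isg15: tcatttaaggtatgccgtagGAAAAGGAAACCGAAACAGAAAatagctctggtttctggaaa
Ifit1 holds 2 separate matches and Isg15 holds 3 that overlap. A match is a description of the sequence and was not tied to binding in these data.

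Levels per well show how broad the main differences were. With each of the wells left thinned to 1000 transcripts, the median well held 1 lysozyme transcript without WBRT (quartiles 0 and 3, highest 16) and 9 with WBRT (3.75 and 14, highest 43). Wells with none made up 35.6% and 7.92%. The border-macrophage list had a median of 1 transcript (0 and 3, highest 18) and 4 (2 and 7, highest 19), and 26.5% and 7.08% of wells had none. The interferon list had a median of 5.5 transcripts (3 and 9, highest 69) and 3 (1 and 4, highest 35), so the upper quartile with WBRT lay below the median without. The 10 wells highest for the interferon list held 31.8% of its transcripts without WBRT and 23% with WBRT. The MHC class II list spread widely in both plates, with medians of 13 (8 and 49.25) and 12.5 (4 and 42.25). All of these distributions overlapped between the plates.

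**Figure D4:**
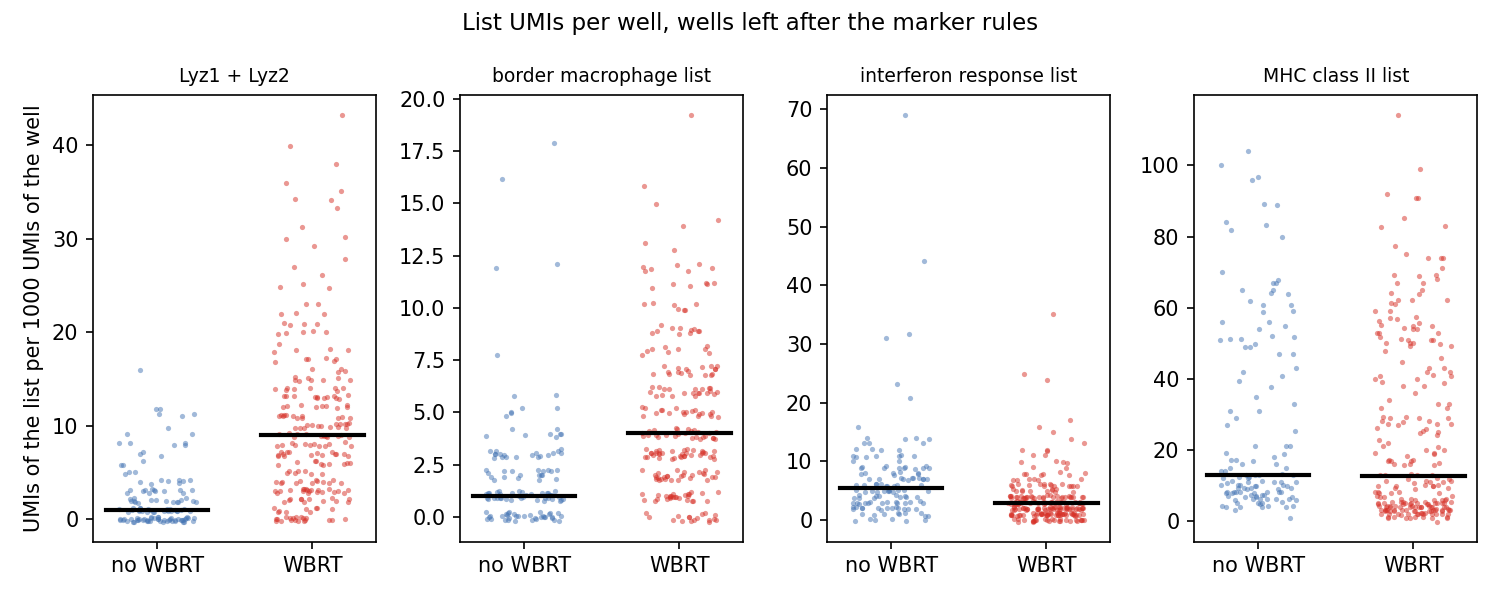
Transcripts of 4 lists in each of the wells left after the marker rules, read at 1000 transcripts per well (y axis), blue for 132 wells without WBRT and red for 240 wells with WBRT; black bars are medians, and points are spread slightly in both directions so that they can be told apart. The lysozyme medians are 1 and 9, the border-macrophage medians 1 and 4, the interferon medians 5.5 and 3 and the MHC class II medians 13 and 12.5.

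Since the marked kinds of wells differed in share between plates, the wells left were also read kind by kind. The kinds were 46 and 160 wells with the Ccr2 mark, 22 and 178 wells with the border-macrophage mark, and 81 and 46 wells with neither the microglia nor the border-macrophage mark. A well can belong to more than one kind, and genes of a mark are set by the choice within it. Smaller sets gave more genes past 2-fold: 11.2% of measured genes higher and 8.36% lower in the Ccr2-marked wells, 11.7% and 7.27% in the border-macrophage-marked wells, and 11.8% and 9.75% in the wells with neither mark. Of the 12 named higher genes, 11 were at least 2-fold higher in the Ccr2-marked wells (not Emp1), 11 in the border-macrophage-marked wells (not F13a1) and 9 in the wells with neither mark (not F13a1, Gpnmb and Hal, the last with a log2 ratio of -0.52). Of the 12 named lower genes, 12, 9 (not Ifit1, Napsa and Rsad2) and 10 (not Cbfa2t3 and Napsa) were at least 2-fold lower. In each direction 8 were past 2-fold in all of these sets. The genes were named for their ratio in the wells left, and the kinds are parts of those wells. These counts therefore follow in part from the choice of genes and are no separate support.

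The sum of Lyz1 and Lyz2 stood higher with WBRT in each of these kinds, at 3031 and 10532 CPM with the Ccr2 mark, 3722 and 12112 CPM with the border-macrophage mark and 1756 and 5218 CPM with neither. Cd93 stood at 193 and 655 CPM, 144 and 647 CPM, and 82.1 and 313 CPM in that order. Ccl5 stood at 177 and 2.34 CPM, 216 and 1.57 CPM, and 354 and 0 CPM. The lysozyme median was 2.05, 1.89 and 1.74 in log2 ratio. The border-macrophage list was past 2-fold in its median among Ccr2-marked wells at 1.24, with 8 of 15 members higher and 1 lower. It stood at 0.94 among wells with the border-macrophage mark itself (7 of 15 higher, 1 lower) and at 0.56 among wells with neither mark (4 of 13 higher, 0 lower). The genes that define this mark are members of the list, so these medians are set in part by the choice of wells. The list was not read without them. The wound list fell short of 2-fold in its median in each kind. It stood at 0.86 with the Ccr2 mark (9 of 21 higher, 1 lower) and 0.90 with the border-macrophage mark (9 of 19 higher, 1 lower). With neither mark it stood at 0.61 (6 of 22 higher, 3 lower).

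Interferon genes differed between kinds. Among Ccr2-marked wells 28 of 44 members were at least 2-fold lower with WBRT, with a median of -1.22, and among wells with neither mark 28 of 44, with a median of -1.28. Among border-macrophage-marked wells 2 of 40 were at least 2-fold lower and 3 at least 2-fold higher, with a median of 0.09. Rsad2 stood at 667 CPM without WBRT and 25.8 CPM with WBRT in the Ccr2-marked wells, at 479 and 6.96 CPM with neither mark, and at 28.8 and 25.6 CPM in the border-macrophage-marked wells. Ifit1 stood at 634 and 64.4 CPM, 548 and 27.8 CPM, and 67.2 and 49.1 CPM in the same order. Cxcl10 was listed at 0 CPM without WBRT and 21.4 CPM with WBRT among border-macrophage-marked wells, against 236 and 15.2 CPM among Ccr2-marked wells. With WBRT 122 wells carried both marks, so the levels of these kinds are not independent there, while without WBRT 10 wells did. The difference between kinds was not tested, and the border-macrophage mark rests on 22 wells without WBRT.

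**Figure D5:**
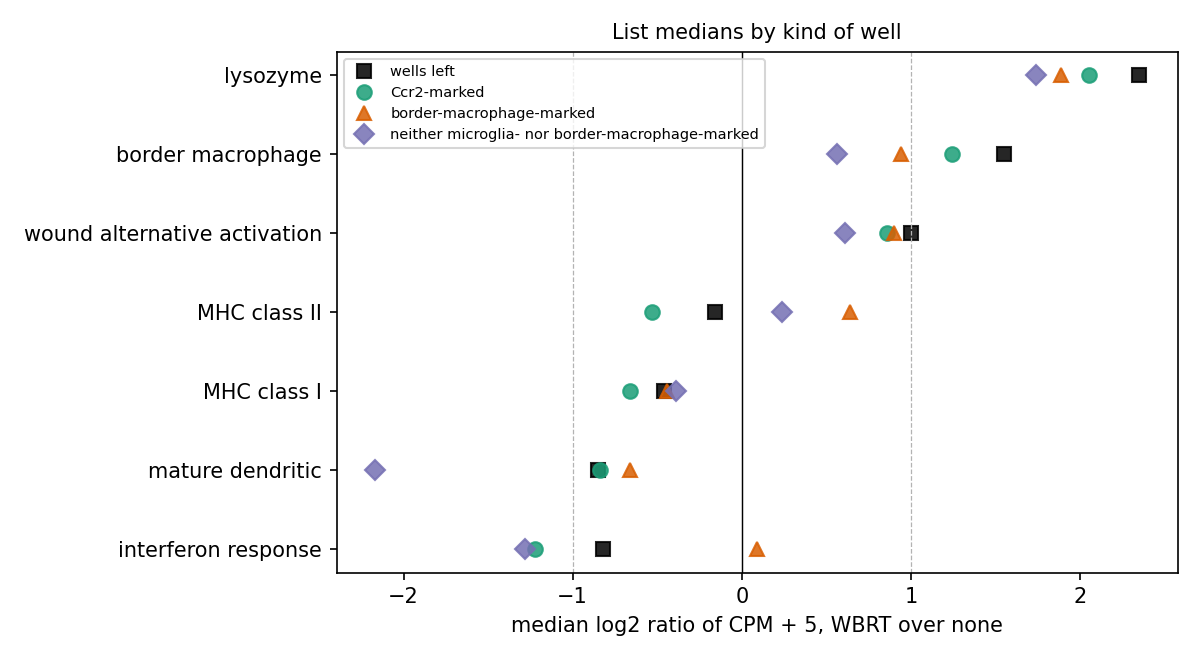
Median log2 ratio of CPM + 5, WBRT over none (x axis), of 7 gene lists in all wells left after the marker rules (squares), in Ccr2-marked wells (circles), in border-macrophage-marked wells (triangles) and in wells with neither the microglia nor the border-macrophage mark (diamonds); dashed lines mark 2-fold. The lysozyme medians lie between 1.74 and 2.35, and the interferon medians lie at -0.82, -1.22, 0.09 and -1.28 in that order of sets.

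Antigen presentation genes were closer between the plates in the wells left. The MHC class I list had 8 of 17 measured members past 2-fold lower and a median of -0.91 over all kept wells, and 2 of 17 and -0.46 in the wells left. With only the Ccr7 and Xcr1 rules applied it was -0.44, and with only the Kcnq1ot1 rule -0.90. The 2 were the peptide transporter subunits Tap1, at 112 and 49.4 CPM, and Tap2, at 38.3 and 14.1 CPM. H2-K1, a classical class I heavy chain, stood at 1914 and 1161 CPM, and B2m, its light chain, at 5351 and 4197 CPM. The MHC class II list went from -0.42 to -0.16, with 2 of 9 members past 2-fold lower in the wells left. Its main chains stayed within 2-fold: H2-Aa stood at 6773 and 6079 CPM, H2-Eb1 at 4862 and 3679 CPM, and Cd74, the invariant chain, at 4900 and 7861 CPM. Ciita, the master regulator of class II genes, stood at 131 and 63.9 CPM.

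Identity lists did not move as blocks. Of 16 measured members of the BMDM identity list 5 were at least 2-fold higher and 3 lower in the wells left, with a median of 0.58. Ccr2 stood at 391 and 990 CPM and Ly6c2, a marker of fresh monocytes, at 37.0 and 2.13 CPM. Plac8, another early monocyte gene, stood at 499 and 204 CPM. Of 16 measured microglia identity genes 1 was at least 2-fold higher and 4 lower, with a median of -0.48. Sparc, a matrix glycoprotein, stood at 940 and 362 CPM and Sall1, the transcription factor that defines microglia, at 40.9 and 10.6 CPM, while Fcrls stood higher, at 150.5 and 584 CPM. Cxcl13, the B cell chemoattractant, stood at 956 and 246 CPM, with 66.7% and 92.5% of its counts in 10 wells.

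Lysosomal genes had 3 of 24 measured members past 2-fold higher in the wells left and 0 lower, with a median of 0.16. The cathepsins parted. Ctsb stood at 5270 and 11205 CPM and Ctsc, which activates granule proteases, at 548 and 1341 CPM, while Ctsd stood at 7393 and 4052 CPM, a log2 ratio of -0.87. Cd68, the lysosomal glycoprotein used to stain macrophages, stood at 267 and 694 CPM.

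Genes of the p53 response, which DNA damage activates, had 0 of 13 measured members past 2-fold in either direction, with a median of 0.18. The other 16 of the 29 members did not reach 20 CPM, and 4 of these lay past 2-fold higher on few counts and 0 lower. Gdf15, a stress cytokine, had 1 count without WBRT and 37 with WBRT, 11.9-fold higher (2.01 to 484), and Sesn2, a stress-induced metabolic regulator, 1 and 28 counts, 9.03-fold higher (1.49 to 369). Gadd45a, a DNA damage-inducible gene, had 3 and 34 counts, 3.66-fold higher (1.15 to 18.6), and Phlda3, a p53 target that restrains Akt, 0 and 17. Cdkn1a, the cell cycle inhibitor p21, stood at 686 and 1120 CPM, 1.63-fold higher (1.49 to 1.80), against 847 and 2017 CPM in the microglia plates. Ccng1, cyclin G1, stood at 56.7 and 112 CPM and Mdm2, the p53 ubiquitin ligase, at 64.7 and 99.2 CPM. Of 8 measured genes of the G2 and M phases 3 were at least 2-fold lower and 1 higher, with a median of -0.85. Top2a, a topoisomerase of dividing cells, stood at 46.2 and 6.81 CPM and Cdk1, the mitotic kinase, at 27.7 and 6.39 CPM, while Mki67 stood at 11.9 and 29.8 CPM. None of 11 measured S phase genes was past 2-fold (median -0.32). In the wells left, 0 of 35 oxidative phosphorylation genes, 0 of 24 immediate early genes and 0 of 13 heat shock genes were past 2-fold. Over all measured genes of these wells, 5.28% were at least 2-fold higher and 4.45% at least 2-fold lower. A count of 0 in the shorter lists, such as those of the p53 response, S phase and heat shock, lies near these shares.

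The microglia plates, read over all their kept wells, had list medians of the same direction as BMDM for some of the lists that led the BMDM difference. Of 6706 genes measured in them, 9.38% were at least 2-fold higher and 7.58% at least 2-fold lower with WBRT. The lysozyme median was 3.30, the border-macrophage median 1.95 (8 of 11 members past 2-fold higher) and the interferon median -1.35 (27 of 42 past 2-fold lower). The wound list fell short of 2-fold in its median, at 0.46 (7 of 20 higher, 2 lower). The mature dendritic median, -2.50 in BMDM over all kept wells, was -0.06 in microglia (1 of 8 lower, 0 higher). The irradiated microglia plate was the shallowest and had a median ERCC share of 30.6%. No difference between the sorts was tested.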

How the data were processed

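Transcripts were counted in single cells sorted into 384-well plates and prepared, per the labels, by a cited protocol that uses well barcodes, molecular identifiers (UMIs) and ERCC spike-ins. The deposited values are expected counts, that is, estimated transcript counts for each gene in each well, not normalized. From the values, they are UMI counts corrected for identifiers that coincide by chance, within 0.005 for every value. The build was GRCm38 per the submitters' processing notes, and the sources used here do not name an aligner, a counter or an annotation.

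Counts were summed over wells of a plate and divided by all endogenous counts, mitochondrial ones included, to give CPM. With 1 plate per group no test was made. CPM and folds have exact Poisson intervals (values rounded to whole counts), and shares have Clopper-Pearson intervals, all at 95%. A count of 3 corresponds to 2.37 CPM without WBRT and 1.19 CPM with WBRT. These intervals hold counting error alone, as if transcripts of a well were independent. Log2 ratios use CPM + 5, so differences of genes with low levels come out too small. Shares of wells and per-well levels were also read with wells thinned to 1000 UMIs, a depth that all kept wells reached. Wells were meant to receive single sorted cells, and doublets were not searched for. More than 1 rule was met by 10 wells without WBRT and 0 with WBRT. Both the microglia and the border-macrophage mark were carried by 8 of 132 wells left without WBRT and 65 of 240 with WBRT. Whether such wells held more than 1 cell was not tested.

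The members, lists, rules and alternatives were chosen with earlier results of these data known. Named genes are the 12 highest and 12 lowest log2 ratios in each set of wells among genes of at least 100 CPM in 1 plate, with a UMI in 20% or more of the wells where the gene was higher, with a fold interval that leaves out 1, and without mitochondrial, ERCC, ribosomal and numbered predicted genes. Members of the lists and the genes with the largest loss of difference under the rules could be named too. Of 818 entries in 54 lists, 745 were found by symbol and 10 by RefSeq synonym, and 63 had no value. The ribosomal RNA gene Rn45s, at 16309 and 16457 CPM, was not read as biology. Positions and promoters are RefSeq's for GRCm38.p6.

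Computation used python 3.11.15, numpy 2.4.6, pandas 2.3.3 and scipy 1.17.1, with edgeR 4.0.16 in R 4.3.3 only for TMM scaling factors. Scripts were tested on simulated data. Alternatives changed the well filter, scaling, weighting, depth, pseudocount, gene filter, marker thresholds and kinds of wells. The alternatives that kept only border-macrophage-marked wells, or left out both marks read after thinning, were added after seeing the data.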

Additional observations from a re-analysis of the deposited data

Results flagged for a closer look

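For 5 genes the BMDM wells left after the marker rules and the microglia plates lay past 2-fold in opposite directions, which is what drew attention to them. Mki67, a nuclear protein of dividing cells, had a log2 ratio of 1.05 in BMDM and -1.26 in microglia. S100a11, a calcium-binding protein, stood at -1.04 and 2.57. Serpinb9, an inhibitor of granzyme B, stood at -1.79 and 1.80. Thbs1, the matrix protein thrombospondin-1, stood at 1.0 and -1.25, and Vegfa, the vascular growth factor, at 1.01 and -1.74. Of these calls in BMDM, under 24 alternatives the one for Vegfa fell short of 2-fold in 13 (down to 0.03), for Mki67 in 9 (0.13), for Thbs1 in 7 (0.20), for S100a11 in 5, with 2 more at 0.01, and for Serpinb9 in 2 (-0.86). Each value compares 1 plate with 1 plate, the difference between the sorts was not tested, and the irradiated microglia plate had the highest median ERCC share, 30.6%.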

How the results depend on the processing

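No paired analysis was possible because each group is 1 plate. Of 99 named or listed genes past 2-fold over all kept wells, 87 were so under all 13 alternatives and 0 reversed. Of 93 in the wells left, 31 were so under all 24 alternatives, of which 10 read fewer wells, 9 the same and 5 more.

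Over all kept wells, thinning gave 838 higher and 930 lower genes, an interferon median of -1.03 and an MHC class I median of -1.15. A pseudocount of 20 CPM gave 141 and 214 genes, a minimum of 100 CPM gave 118 and 122 with an interferon median of -1.07, and no filter gave 620 lower genes. The interferon median was -1.08 with 3000 counts per well or without the 10 deepest wells, and the MHC class I median was -1.08 with wells weighted alike. Cd163 turned to -1.33 under thinning and -1.02 with wells weighted alike.

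In the wells left, thinning gave 1066 and 936 genes, a mature dendritic median of -1.37, and reversed Cd163 (-2.01) and Ramp3 (1.42). A pseudocount of 20 CPM gave 106 and 136 genes. A minimum of 100 CPM gave 93 and 67. No filter gave 535 and 527, with a border-macrophage median of 0.78. The wound median lies at the 2-fold limit and ranged from 0.58 to 1.29 under the 24 alternatives. It fell to 0.86 in Ccr2-marked wells, 0.90 in border-macrophage-marked wells and 0.61 in wells with neither mark. It was 1.0 without Rn45s and with observed UMIs. It was 1.03 with a pseudocount of 1 CPM, 1.24 at 100 CPM, 1.02 and 1.04 with thresholds lowered and raised, 1.15 with rules read after thinning, 1.04 without the Kcnq1ot1 rule, 1.29 with that rule alone and 1.09 with both marks read after thinning and left out. The interferon median was -1.01 with wells weighted alike or rules read after thinning and -1.04 without the 10 deepest wells. The Kcnq1ot1 rule alone gave a mature dendritic median of -2.76.

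Leaving out microglia-marked wells gave 568 and 451 genes and an interferon median of -1.05. Leaving out border-macrophage-marked wells gave 464 lower genes and medians of -1.23 (interferon), 0.55 (border macrophage), -1.21 (mature dendritic) and 0.13 (cDC2), with S100a11 at 0.01. Leaving out both gave 791 and 653 genes and medians of -1.28, 0.56, -2.17 and 0.12, and reversed Ccl22 (1.26), Clec10a (0.01), Hal (-0.52) and S100a11 (0.01). Ccr2-marked wells alone gave 755 and 561 genes and an interferon median of -1.22, and reversed C4b (0.66) and Spp1 (1.21). Border-macrophage-marked wells alone gave 767 and 477 genes and medians of 0.94 (border macrophage) and 0.28 (cDC2), and reversed Clec10a (0.70), Cxcl10 (2.40), Ifit2 (0.85) and Mx1 (0.14).

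The shares that follow count a well under every rule it met, not only the first. Counted so, the main shares for the Ccr7, Xcr1 and Kcnq1ot1 rules were 20.1%, 16.7% and 11.1% without WBRT. With WBRT they were 0.382%, 3.82% and 4.20%. With 3000 counts per well, the 3 rules took 15.0%, 23.5% and 4.58% of wells without WBRT, and the Kcnq1ot1 rule 1.77% with WBRT (2.03% at an ERCC share under 25%). Lowered thresholds gave 27.4%, 29.5% and 29.9% without WBRT, and 11.1% (Xcr1) and 12.2% (Kcnq1ot1) with WBRT. Raised thresholds gave 9.83% (Xcr1) and 6.84% (Kcnq1ot1) without WBRT. Read after thinning, the Ccr7 rule took 0% with WBRT and the Xcr1 rule 4.70% and 0.763%. Apart from leaving out wells or genes, the cause of these shifts was not tested. Depth limits the smaller sets: 3 counts are 3.96 CPM in the wells left without WBRT, 12.6 CPM in the Ccr2-marked and 14.4 CPM in the border-macrophage-marked ones among them, and 4.62 CPM in the irradiated microglia plate.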
